A study of Triticum aestivum with 6 samples.

Results

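The distal genes are the genes listed nearest to the ends of the wheat chromosomes. On each of the 21 chromosomes (1A to 7D), the listed genes were sorted by the number in their identifier, and the first 10% and the last 10% were taken, 6907 genes at first ends and 6907 at last ends. These 13814 distal genes stood against 55359 other placed genes, among 70043 listed in all, of which 870 had no chromosome and belonged to neither class. An end held between 266 and 380 genes. No genome of this annotation was at hand, so an end is defined by gene order and not by bases, and first and last refer to the order of the identifier numbers.

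The libraries were made from axillary buds, which sit in the axils of leaves and grow out into the tillers of wheat. The mutant tatfl1-5 (aabbdd) was a transgene-free CRISPR/Cas9 line in the wild-type wheat Fielder, homozygous for deletions in the A and B copies of TaTFL1-5 and for an insertion in the D copy, all leading to premature stop codons. It was a single line, so other differences between that line and Fielder cannot be told apart from the edits. Each genotype had 3 biological replicates, and the sources used here do not say whether a replicate pooled several plants. The seedling age is given as 10 days in one place and 3 weeks in another, and no further treatment is named for either genotype.

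Common wheat is a hexaploid with A, B and D subgenomes, so most genes have similar copies on 3 chromosomes of one group. Its chromosome ends are gene-rich, recombine often and carry many tandem families, such as disease resistance genes, receptor kinases and seed storage proteins, whereas genes used in most tissues are more common in the interior. Chromosome 4A is rearranged, with a pericentric inversion and with long-arm segments that came from 5A and 7B.

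The libraries held between 13320461 and 17174131 counts, the lowest in Fielder replicate 1, which also had the most distal genes at 0 counts (20.8%). Levels between genes are compared as FPKM, which corrects for gene length. Fold changes and overlap of 1 gene between genotypes rest on CPM, counts relative to the TMM-normalized library total. Where counts or FPKM of a gene are printed for each genotype, they are the deposited values, without TMM scaling. As a check of the labels, TaTFL1-5A (TraesCS5A02G128600) had 1, 7 and 5 counts in the mutant, against 9, 14 and 21 in Fielder, and TaTFL1-5B (TraesCS5B02G127600) had 20, 19 and 23 counts in the mutant, against 46, 44 and 31 in Fielder. Neither lies at an end and neither was called (adjusted p = 0.147 and 0.131 in edgeR's quasi-likelihood test). TaTFL1-5D was not analysed here. No table at hand pairs all identifiers with names. The only green-tissue genes at hand were selected by the study as changed, so they cannot check the bud label independently. They are described with the light-harvesting genes.

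One distal gene was also measured by the study with quantitative PCR, and its primers are shown because it is among the members that differ most. They belong to TraesCS3B02G594300 on the last end of 3B, and are printed 5′ to 3′ in lower case, with no part marked.
DLYZ-HF: cctcgtccccctcctcg
DLYZ-HR: gccgacttgtccccgc

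Distal genes were less abundant than the other placed genes. The median log2(FPKM + 1) of the distal genes was 1.36, 1.33 and 1.36 in mutant replicates 1, 2 and 3 and 1.34, 1.38 and 1.38 in Fielder replicates 1, 2 and 3. That of the other placed genes was 1.91, 1.84 and 1.93 in the mutant and 1.93, 1.93 and 1.92 in Fielder. In each of the 6 libraries the distal median was the lower one, and the 2 classes did not overlap. The difference averaged -0.55 ± 0.03 on the log2 scale (SD, n = 6 libraries). In an exact two-sided sign-flip permutation test over the libraries p was 0.03125, the smallest that 6 libraries can give. After adjustment over the 5 tests made on library values it was 0.0781. That is the smallest adjusted value this family of tests allows, so it could not pass 0.05. These p-values measure agreement among libraries on the same genes, and not the spread over genes or chromosomes. Among the genes that passed the filter on low counts the difference was smaller, -0.15, since the filter removes genes with few counts. Gene length was not very different, with a median of 1625 bases in distal genes and 1606 in the other placed genes.

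Fewer distal genes reached 1 FPKM. Their share was 56.2%, 55.6% and 56.4% in the mutant and 55.7%, 56.4% and 56.2% in Fielder, against 67.2%, 66.1% and 67.4% of the other placed genes in the mutant and 66.2%, 66.6% and 66.8% in Fielder. The distal share was lower in 6 of 6 libraries, by 10.7 ± 0.31 percentage points (SD, n = 6; exact p = 0.03125 and 0.0781 after adjustment, as above). At the low end, 17.1% of distal genes had 0 counts in a library on average, against 11.7% of the other placed genes. At the high end, 1.03% of distal genes reached 100 FPKM, against 1.41% of the others.

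The gene order also showed a difference in how many genes were listed at all. Identifier numbers run in steps of 100, and the distal genes filled 49.6% of the numbers in their range, against 69.1% for the other placed genes. The share was 49.1% at first ends and 50.0% at last ends. At 41 of the 42 ends it was below that of the rest of the same chromosome, the exception being the first end of 4A. It was lowest at the last ends of 7B (37.4%) and 4A (38.7%) and the first end of 2B (38.4%), and highest at the first end of 4A (67.3%). Each listed gene had at least 1 count in some library, and the numbers without a listed gene were not analysed here.

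The level was higher further inward, and at first ends the largest change between neighbouring bins lay at the 10% limit. In bins of 5% of the genes of each chromosome, the median log2(FPKM + 1), averaged over the 6 libraries, was 1.34 in the outermost first bin and 1.41 in the bin just inside the limit, against 1.67 just outside it. On the other side it was 1.32 in the outermost bin and 1.37 just inside, against 1.53 just outside. The highest level, 2.25, lay between 35% and 40% of the gene order, and all 16 bins outside the limit were above all 4 bins inside it. The share of genes at 1 FPKM or more had the same course, with 57.1% just inside and 63.0% just outside the limit at first ends, and 56.4% just inside against 58.7% just outside at last ends.

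**Figure D1:**
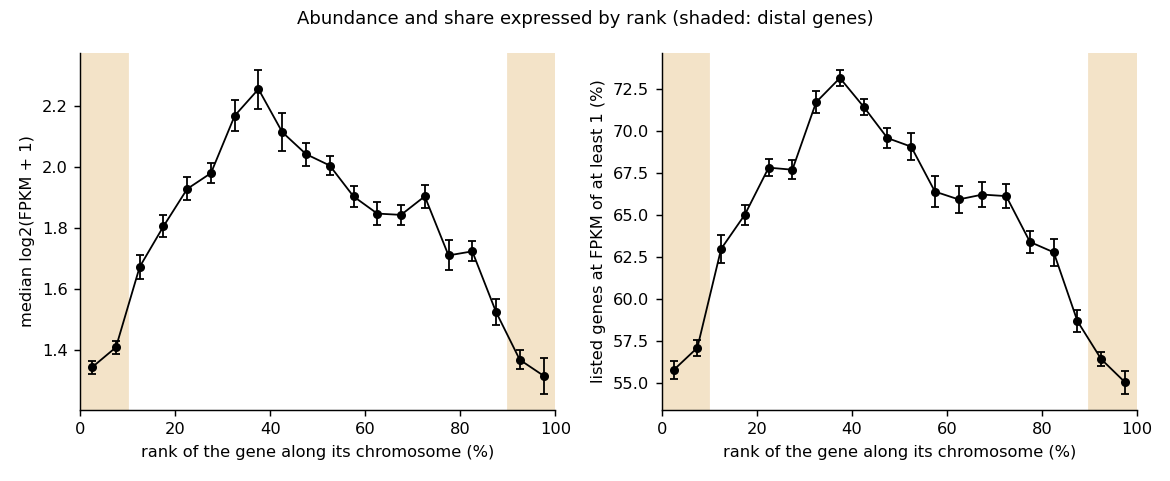
Median log2(FPKM + 1) (left) and share of listed genes at 1 FPKM or more in % (right), in 20 bins of gene order pooled over the 21 chromosomes. Points are means over the 6 libraries, bars are SD and the shaded bins are the distal genes. The level is 1.34 and 1.32 in the outermost bins and highest, 2.25, between 35% and 40%.

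Single ends differed more than the classes did. The median log2(FPKM + 1) was below that of the rest of the chromosome at 41 of 42 ends, and at 39 of them in each of the 6 libraries. The lowest end was the last end of 4A, with 0.54 ± 0.04 (SD, n = 6) and 42.4% of its genes at 1 FPKM or more. The next lowest were the last end of 2D (0.82 ± 0.10) and the first ends of 2B (0.91 ± 0.06) and 2A (0.95 ± 0.06). Their order is uncertain, since they were close for this spread and were not compared library by library. The only end above the rest of its chromosome was the first end of 4D, with 2.33 ± 0.09, where 73.6% of genes reached 1 FPKM. The first ends of 4B and 4A followed, with 1.98 ± 0.08 and 1.95 ± 0.06. On 4A the ends were thus far apart, with 79.4% of the first-end genes and 52.1% of the last-end genes passing the filter on low counts.

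The order of the ends was mostly shared within a chromosome group. In groups 1, 3 and 6 the last end had the higher level on the A, B and D chromosomes, for example 1.74 against 1.34 on 1D and 1.70 against 1.17 on 6A. The ends of 1A (1.49 and 1.38), 3A (1.23 and 1.14) and 3B (1.15 and 1.02) were close for their SD over the libraries. The same libraries gave both ends, which were not compared library by library, so the order on these chromosomes is uncertain. In groups 4 and 5 the first end was higher on all 3 chromosomes, as on 4D with 2.33 against 1.56. On 5D the ends (1.59 and 1.55) differed by less than their spread. Since 4A is rearranged, its ends need not be the counterparts of those of 4B and 4D, so its order cannot be counted as shared. Group 7 had the higher first end on 7B and 7D, and nearly equal ends on 7A (1.25 and 1.23). In group 2 the last end was higher on 2A and 2B and the first end on 2D. By subgenome the distal level was 1.35 on A, 1.34 on B and 1.38 on D, against 1.95, 1.87 and 1.92 for the other placed genes.

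**Figure D2:**
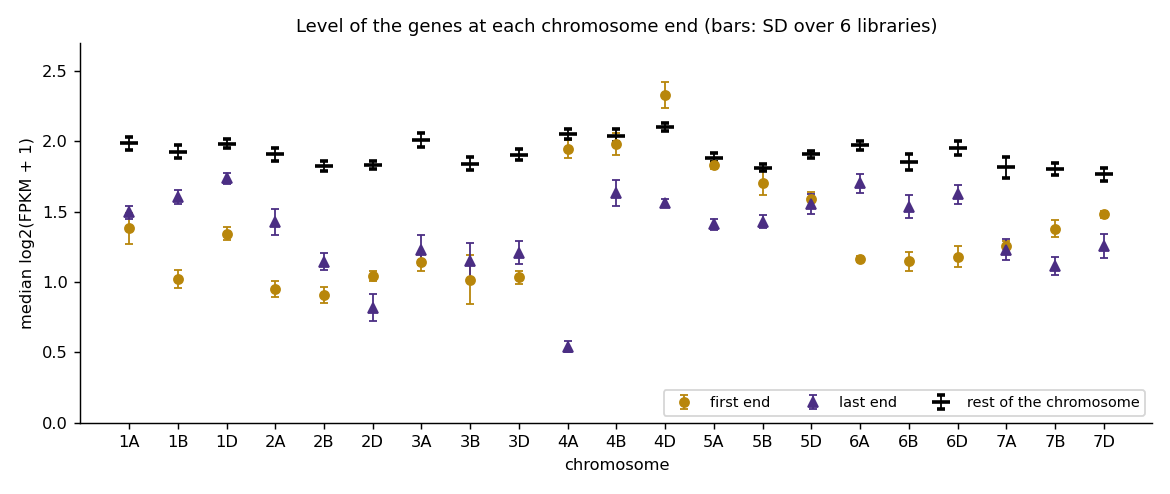
Median log2(FPKM + 1) of listed genes at the first end (circles), the last end (triangles) and in the rest (bars) of each chromosome. Points are means and error bars SD over the 6 libraries. The last end of 4A is lowest (0.54) and the first end of 4D highest (2.33).

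A few distal genes were among the most abundant of all. Of the 10 placed genes with the highest mean FPKM, 3 were distal. Of the 100 highest 19 were, 15 at first ends and 4 at last ends. Of the 1000 highest 149 were, 96 at first ends and 53 at last ends. Distal genes made up 19.97% of all placed genes, so they were not over-represented among the 100 or the 1000 highest. The most abundant gene of the whole table was TraesCS1D02G034800 on the first end of 1D, with 4960, 4938 and 5441 FPKM in the mutant and 6941, 6280 and 7802 FPKM in Fielder. Each mutant library lay below each Fielder library, with a log2 fold change of -0.39 (SE 0.11, adjusted p = 0.0174 in edgeR), which is inside the 2-fold limit and so was not called. TraesCS1B02G042200, at a like rank on the first end of 1B, averaged 1923 ± 153 FPKM in the mutant and 2244 ± 409 FPKM in Fielder (SD, n = 3 each). TraesCS4B02G020300 averaged 1053 ± 130 FPKM in the mutant and 1639 ± 273 FPKM in Fielder, and TraesCS4D02G018500 averaged 939 ± 212 FPKM in the mutant and 1167 ± 215 FPKM in Fielder. TraesCS7B02G444400, the only one of the 5 at a last end, averaged 1108 ± 48.5 FPKM in the mutant and 931 ± 134 FPKM in Fielder. None of these 5 genes was called, and the sources used here give no name for them.

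The replicate spread of distal genes was slightly wider. The median SD of log2 CPM over the 3 mutant replicates was 0.25 for the 9263 tested distal genes, against 0.24 for the 42457 other tested genes, and over the 3 Fielder replicates it was 0.33 against 0.31. The spread depended on the level far more than on position. In the mutant it was 0.44 for distal genes and 0.43 for other genes at a mean log2 CPM of 0 to 2, and 0.15 for both at 4 to 6. In Fielder it was 0.56 for distal genes and 0.54 for other genes at 0 to 2, and 0.21 and 0.22 at 4 to 6. Above 6 the distal spread was the wider, with 0.12 against 0.11 in the mutant and 0.21 against 0.19 in Fielder. At 2 to 4 it was 0.24 for both in the mutant and 0.31 against 0.30 in Fielder. Under 0 the distal spread was 0.62 against 0.64 in the mutant and 0.80 for both in Fielder. A mean log2 CPM of 2 or less was found for 34.7% of the tested distal genes, against 30.5% of the other tested genes. Among genes above a mean log2 CPM of 2 the gap between the classes, averaged over the genotypes, was 0.00084, against 0.0141 over all tested genes. Over all tested genes it was 0.0082 without Fielder replicate 1 and 0.0092 without mutant replicate 3. No test was made of the spread.

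As a whole, distal genes took the same part of the RNA in both genotypes within the replicate spread. Their share of the counts on placed genes was 17.7%, 17.8% and 17.5% in the mutant and 17.5%, 17.9% and 18.2% in Fielder, and the genotypes overlapped (difference -0.20 percentage points, exact two-sided permutation p = 0.4, adjusted p = 0.5). The level gap between distal and other placed genes was -0.55, -0.51 and -0.57 in the mutant and -0.59, -0.56 and -0.54 in Fielder, a difference of 0.02 (exact p = 0.5, adjusted p = 0.5). The gap in the share at 1 FPKM or more was -11.0, -10.6 and -11.0 percentage points in the mutant and -10.5, -10.2 and -10.6 in Fielder, a difference of -0.42 (exact p = 0.2, adjusted p = 0.333). With 3 libraries against 3 the smallest p is 0.1, so none of these 3 tests could pass 0.05.

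**Figure D3:**
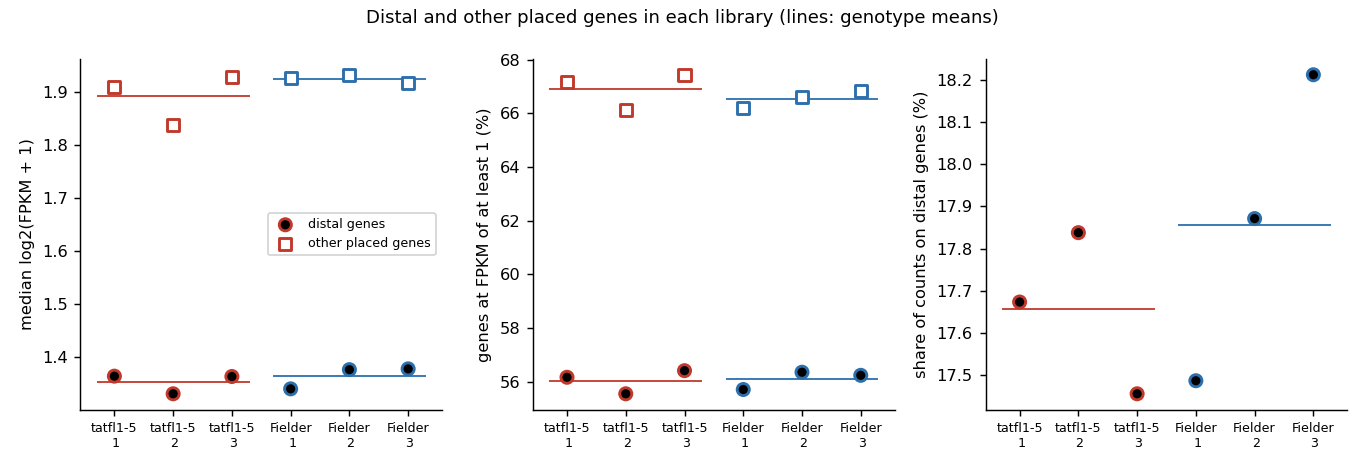
Median log2(FPKM + 1), share of genes at 1 FPKM or more and share of counts on distal genes in each library, for distal (filled circles) and other placed genes (open squares). Red outlines are tatfl1-5 and blue outlines Fielder, and lines are genotype means. Distal medians lie between 1.33 and 1.38 and the others between 1.84 and 1.93, while the genotypes overlap in all 3 panels.

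Between the genotypes, distal genes changed about as often as other genes. Calls required an adjusted p below 0.05 in edgeR's quasi-likelihood test, over all 52228 tested genes, and a log2 fold change beyond 1 in either direction. Of the 13814 distal genes, 9263 passed the filter on low counts (67.1%, against 76.7% of the other placed genes), and 1274 were called (13.8%), beside 13.7% of all tested genes. Of these, 715 were higher in the mutant (7.72%, against 7.98% of all tested genes) and 559 lower (6.03%, against 5.75%). Scaled by library size alone, 657 distal genes were called higher and 679 lower, beside 3762 higher and 3625 lower of all tested genes, so the excess of higher calls among distal genes depends on the scaling. The CPM values of the genotypes did not overlap for 3938 distal genes (42.5%), beside 43.1% of all tested genes. The median absolute log2 fold change was 0.49 for distal and 0.48 for other placed genes. At a like level the shares were also close, for example 15.1% of distal and 15.3% of other genes called at a mean log2 CPM of 2 to 4, and 16.5% of distal and 15.4% of other genes above 6. These p-values measure the spread between the sampled replicates.

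The first and the last ends did not have the same balance. At first ends 400 genes were higher in the mutant (8.51%) and 272 lower (5.79%). At last ends 315 were higher (6.90%) and 287 lower (6.29%), beside 7.98% higher and 5.75% lower of all tested genes. Of the called genes, 59.5% were higher at first ends, near the 58.1% of all tested genes, and 52.3% at last ends. More higher calls are not particular to first ends. Just outside the limit, at 10% to 15% of the gene order, 271 genes were higher and 103 lower. The median log2 fold change was 0.05 at first ends and -0.02 at last ends, beside 0.00 for all tested genes, and it was the higher at the first end on 16 of the 21 chromosomes. Scaled by library size alone, it was -0.02 at first ends, -0.09 at last ends and -0.06 for all tested genes, with 360 higher and 336 lower calls at first ends and 297 higher and 343 lower at last ends. The median log2(FPKM + 1) of first-end genes was 1.39, 1.37 and 1.40 in the mutant and 1.34, 1.37 and 1.36 in Fielder. That of last-end genes was 1.35, 1.29 and 1.33 in the mutant and 1.34, 1.38 and 1.39 in Fielder. The genotypes overlapped at both kinds of end, at first ends only in that mutant replicate 2 lay just below Fielder replicate 2. The difference between the ends was seen in the data and was not tested. By subgenome, 14.0% of tested distal genes were called on A, 13.7% on B and 13.6% on D.

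The share called at a single end ranged between 8.88% and 18.8%, with a median of 13.3%. It was highest at the first end of 4D, with 26 of 213 tested genes higher and 14 lower, but other ends exceeded it in 5 of the 6 fits without 1 library. Its share was then between 13.7% and 19.3%, and without Fielder replicate 1, for example, it was 15.5%, against 17.9% at the last end of 2A. The lowest share was at the first end of 1D, with 10 of 214 tested genes higher and 9 lower, and it was 5.05% without Fielder replicate 1. It was not the lowest in each of these fits either. Higher genes outnumbered lower ones at 31 of the 42 ends, but at 18 when scaled by library size alone. With TMM scaling they also did so in the rest of the chromosome on 20 of 21 chromosomes, where more genes were tested. The largest excess of lower genes by number was at the first end of 2A, with 15 of 230 tested genes higher and 25 lower. The last end of 2D had 9 of 215 tested genes higher and 17 lower. At both ends lower genes led in each of the 6 fits without 1 library. The first end of 3B, with 25 genes higher and 10 lower, had the highest median log2 fold change of an end (0.29), but without Fielder replicate 1 it had 14 higher and 14 lower and a median of 0.04.

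**Figure D4:**
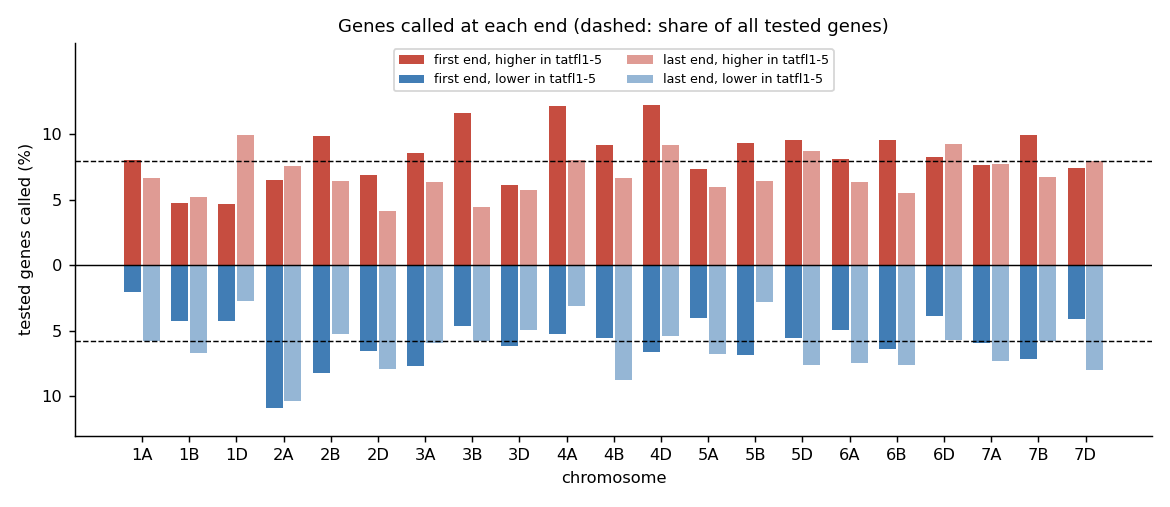
Share of tested genes called higher (red, upward) and lower (blue, downward) in tatfl1-5 at the first (dark) and last (light) end of each chromosome, in %. Dashed lines mark the 7.98% higher and 5.75% lower of all tested genes. With all 6 libraries the shares called span 8.88% (first end of 1D) to 18.8% (first end of 4D), an order that changes when 1 library is left out.

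Complete presence in one genotype was rare. At most 3 counts in each Fielder library, with at least 10 in each mutant library, were found for 19 distal genes (0.138%, against 0.139% of the other placed genes). The converse, at most 3 counts in each mutant library, held for 21 distal genes (0.152%, against 0.157%). Of the 87 other placed genes in that converse set, 54 lay on a single chromosome, so the share of 0.157% depends largely on that chromosome. Both distal sets were spread over 17 ends, with at most 2 and 3 genes on any end.

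The largest rises began with TraesCS1A02G403300 on the last end of 1A, a light-harvesting gene with 238, 162 and 169 counts in the mutant and 0 in each Fielder library. It was at least 61.7-fold higher, set against a floor of 3 counts per library. TraesCS6D02G365700, on the last end of 6D, had 191, 17 and 70 counts in the mutant and 0 in each Fielder library. Its mutant libraries were far apart, so that it was at least 29.7-fold higher with all libraries and at least 14.6-fold without mutant replicate 1. TraesCS5D02G066200, on the first end of 5D, had 193, 175 and 236 counts in the mutant and 0, 1 and 1 in Fielder, a ratio of 298 with a 95% Clopper-Pearson interval of 82.2 to 2469 that covers counting error only. TraesCS7A02G544900 had 51, 18 and 12 counts and TraesCS2D02G043200 had 29, 23 and 14 counts in the mutant, both with 0 in each Fielder library, and they were at least 8.65-fold and 7.13-fold higher. The bound of TraesCS7A02G544900 was 5.00-fold without mutant replicate 1. All 5 kept their call whichever library was omitted. They were chosen as the largest called rises, so this is a description and not independent support.

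The largest falls included the gene whose primers are shown above. TraesCS3B02G594300 had 0, 1 and 0 counts in the mutant and 29, 65 and 121 in Fielder, with no overlap. The ratio of Fielder to mutant was 218 (95% Clopper-Pearson interval 38.6 to 8636, counting error only), with an adjusted p of 6.24e-05 in edgeR. TraesCS2D02G572000 had 0 counts in each mutant library and 30, 79 and 67 in Fielder, and was at least 19.4-fold lower. TraesCS2D02G566500, on the same last end of 2D, had 0, 0 and 1 counts in the mutant and 67, 169 and 107 in Fielder, a Fielder to mutant ratio of 347 (61.9 to 13754). TraesCS5A02G054900 on the first end of 5A had 0 counts in each mutant library and 51, 58 and 58 in Fielder, and was at least 18.8-fold lower. TraesCS3A02G526600 had 0 counts in each mutant library and 27, 30 and 28 in Fielder, and was at least 9.61-fold lower. Of these 5, 4 lie on last ends, and none of the 5 lost its call when 1 library was omitted. They were chosen as the largest called falls, so the kept calls and the p-value are a description and not independent support.

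Names and pathways were available for 7 ends, those of 1A, 1B and 1D and the first end of 2A, from the annotation of genes that the study had itself selected as changed in these libraries. Directions within this annotation are therefore a description and not independent evidence. It covers 171 of the 175 genes called on these 7 ends. Of its 1078 genes, 188 (17.4%) were distal, with 95 calls higher and 76 lower in the mutant, against 508 higher and 326 lower among its 890 other genes. The lists were unevenly placed. None of the 62 nucleosome genes, which encode mostly histones, and none of the 27 ribosome genes was distal, nor were the 8 hormone signalling, 5 F-box and 10 cytochrome P450 or glutathione transferase genes. By contrast 6 of 11 photosynthesis genes, 5 of 14 protein folding genes and 12 of 32 defence genes were distal.

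The annotated distal light-harvesting genes rose together. They encode chlorophyll a-b binding proteins, which form the antenna of photosystem II and are typical of green tissue. All 6 lie on the last ends of 1A, 1B and 1D and all 6 were called higher. Their log2 fold changes had a median of 5.46. It was 1.11 over the tested distal genes of the whole annotation, which were likewise selected as changed, and 0.01 over all tested distal genes. Of the 5 other genes of that list, 4 were called higher. TraesCS1A02G403300, given above, TraesCS1B02G432700 and TraesCS1D02G411300 carry the symbol WHAB1.6, at 91.5%, 91.1% and 91.6% of the gene order of their chromosomes. Of the 6, TraesCS1B02G432700, TraesCS1B02G451200 and TraesCS1D02G428200 were named after their values were seen. TraesCS1B02G432700 had 143, 163 and 135 counts in the mutant and 0, 10 and 0 in Fielder, and TraesCS1D02G411300 had 64, 57 and 65 counts in the mutant and 1, 0 and 0 in Fielder. The others carry the symbol LHBC, a type III protein of the same complex. The neighbours TraesCS1B02G451100 and TraesCS1B02G451200 had 128, 161 and 141 counts and 136, 125 and 173 counts in the mutant, against 1, 0 and 8 counts and 0, 10 and 4 counts in Fielder. TraesCS1D02G428200 had 175, 135 and 175 counts in the mutant and 0, 10 and 10 in Fielder (log2 fold change 4.58, SE 0.51, adjusted p = 3.49e-05 in edgeR). Every mutant library was above every Fielder library for each of the 6, and all were called in each fit without 1 library.

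Over the whole list of 11 photosynthesis genes, distal or not, 10 were called higher. The list holds only genes that the study had selected as changed in these libraries. It therefore does not show how other photosynthesis genes behaved. The summed level of the 11 was between 64.9 and 70.2 CPM in the mutant and between 1.09 and 3.53 CPM in Fielder. Of the 11, 3 had 0 counts in each Fielder library. In bulk samples, more green cells and more of this RNA per cell cannot be told apart. Whether the share of green tissue plays a part in the other changes was not tested.

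The annotated distal genes of protein folding and DNA replication were higher. All 5 distal genes of the protein folding list were called (median log2 fold change 1.30), beside 8 higher and 1 lower of the 9 other genes of that list, although only 3 were called without mutant replicate 3. TraesCS2A02G033700, an HSP90 gene whose chaperone matures many signalling proteins, had 72, 136 and 111 counts in the mutant and 21, 30 and 36 in Fielder (log2 fold change 1.87, SE 0.35, adjusted p = 0.00155 in edgeR). TraesCS1B02G054900, annotated by the Arabidopsis DnaJ co-chaperone At2g22360, had 237, 288 and 284 counts in the mutant and 58, 117 and 86 in Fielder. TraesCS1B02G011200 had 83, 85 and 134 counts in the mutant and 32, 47 and 43 in Fielder, and was not called without mutant replicate 3 (adjusted p = 0.0786 in edgeR). Each of these 3 genes had all mutant libraries above all Fielder libraries. The single distal gene of DNA replication, TraesCS1D02G416900, a homolog of TIMELESS, which guards the replication fork, averaged 34.5 ± 7.29 CPM in the mutant and 13.8 ± 4.39 CPM in Fielder (SD, n = 3 each; adjusted p = 9.12e-04 in edgeR).

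A pair of genes of the plant-specific HD2 family of histone deacetylases, chosen after their values were seen, stands at 99.9% of the gene order of 1A and 1D. TraesCS1D02G454400 had 4937, 5845 and 4813 counts in the mutant and 1758, 2231 and 2501 in Fielder, a log2 fold change of 1.26 (SE 0.14, adjusted p = 3.24e-05 in edgeR). TraesCS1A02G445700 had 2641, 2771 and 2489 counts in the mutant and 857, 1416 and 1499 in Fielder, with no overlap and a log2 fold change of 1.07, which was 0.91 and inside the 2-fold limit without Fielder replicate 1.

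The tested distal transcription factor genes of this annotation, all selected by the study as changed, were lower. All 5 were called lower (median log2 fold change -1.64), beside 14 higher and 18 lower of the 36 other genes of that list, and 3 were called without Fielder replicate 1, without mutant replicate 1 or without mutant replicate 3. Of the 5, TraesCS1D02G041500 and TraesCS1D02G041600 are annotated as like ZAT12, a C2H2 zinc finger protein known in Arabidopsis from oxidative and cold stress, and TraesCS1B02G053200 as a C2H2 zinc finger. TraesCS1A02G040300 has no description but shares its symbol with TraesCS1B02G053200 and TraesCS1D02G041500. These 4 lie between 6.59% and 7.84% of the gene order on the first ends of 1A, 1B and 1D. TraesCS1B02G053200 had 157, 205 and 171 counts in the mutant and 1364, 1289 and 1679 in Fielder. All Fielder libraries were far above all mutant libraries, and the change was the largest of the 5 (log2 fold change -3.04, SE 0.18, adjusted p = 1.39e-07 in edgeR). TraesCS1D02G041500 had 47, 45 and 65 counts in the mutant and 281, 134 and 232 in Fielder. The other 2 were named after their values were seen. TraesCS1A02G040300 had 83, 120 and 62 counts in the mutant and 153, 164 and 305 in Fielder, and its log2 fold change of -1.22 was -0.95 without Fielder replicate 3. TraesCS1D02G041600, next to TraesCS1D02G041500, had 21, 42 and 32 counts in the mutant and 107, 52 and 74 in Fielder, and was called in 3 of the 6 fits without 1 library. If these copies are similar in sequence, reads may have been divided among them in the counting. TraesCS1B02G060400 had 16, 10 and 10 counts in the mutant and 44, 39 and 26 in Fielder, and was called in 1 of the 6 fits, with an adjusted p up to 0.131 in edgeR without Fielder replicate 1.

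The annotated distal defence and receptor kinase genes were mostly lower. Of the 11 tested distal defence genes, 10 were called lower and 1 higher (median log2 fold change -1.30), beside 13 lower and 6 higher of the 20 other genes of that list. Without Fielder replicate 1, 5 distal genes were called lower. TraesCS2A02G033600, an endochitinase, an enzyme that cuts the chitin of fungal walls, had 29, 31 and 39 counts in the mutant and 135, 143 and 174 in Fielder (log2 fold change -2.20, SE 0.28, adjusted p = 9.19e-05 in edgeR). TraesCS2A02G029900 had 2, 4 and 8 counts in the mutant and 27, 32 and 14 in Fielder, and was called in 2 of the 6 fits without 1 library, with an adjusted p of 0.133 in edgeR without mutant replicate 1. The one gene that rose was TraesCS1D02G053000, a defensin, a small antimicrobial peptide. It had 135, 145 and 180 counts in the mutant and 20, 24 and 76 in Fielder, where replicate 3 was well above the others (log2 fold change 1.97, SE 0.39, adjusted p = 0.00213 in edgeR). Other lower genes of the list were annotated as disease resistance proteins of the RPP13 and Lr10 kinds, which sense pathogen effectors inside the cell.

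Of the 4 tested distal receptor kinase genes, 3 were called lower, beside 6 higher and 4 lower of the 11 others. Receptor kinases bind a ligand outside the cell and signal within it. The neighbours TraesCS1B02G451600 and TraesCS1B02G451700 on the last end of 1B had 81, 52 and 38 counts and 44, 36 and 39 counts in the mutant, against 199, 193 and 205 counts and 119, 104 and 140 counts in Fielder. In the gene order 1 other listed gene separates them from the light-harvesting pair of 1B, which changed in the opposite direction. TraesCS1D02G051000, a leucine-rich repeat receptor kinase on the first end of 1D, averaged 2.54 ± 0.51 CPM in the mutant and 6.92 ± 0.73 CPM in Fielder (SD, n = 3 each). The single distal gene of the storage protein and inhibitor list, the protease inhibitor gene TraesCS1B02G035100, averaged 7.02 ± 1.43 CPM in the mutant and 17.7 ± 4.81 CPM in Fielder and was called lower (adjusted p = 0.00149 in edgeR).

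**Figure D5:**
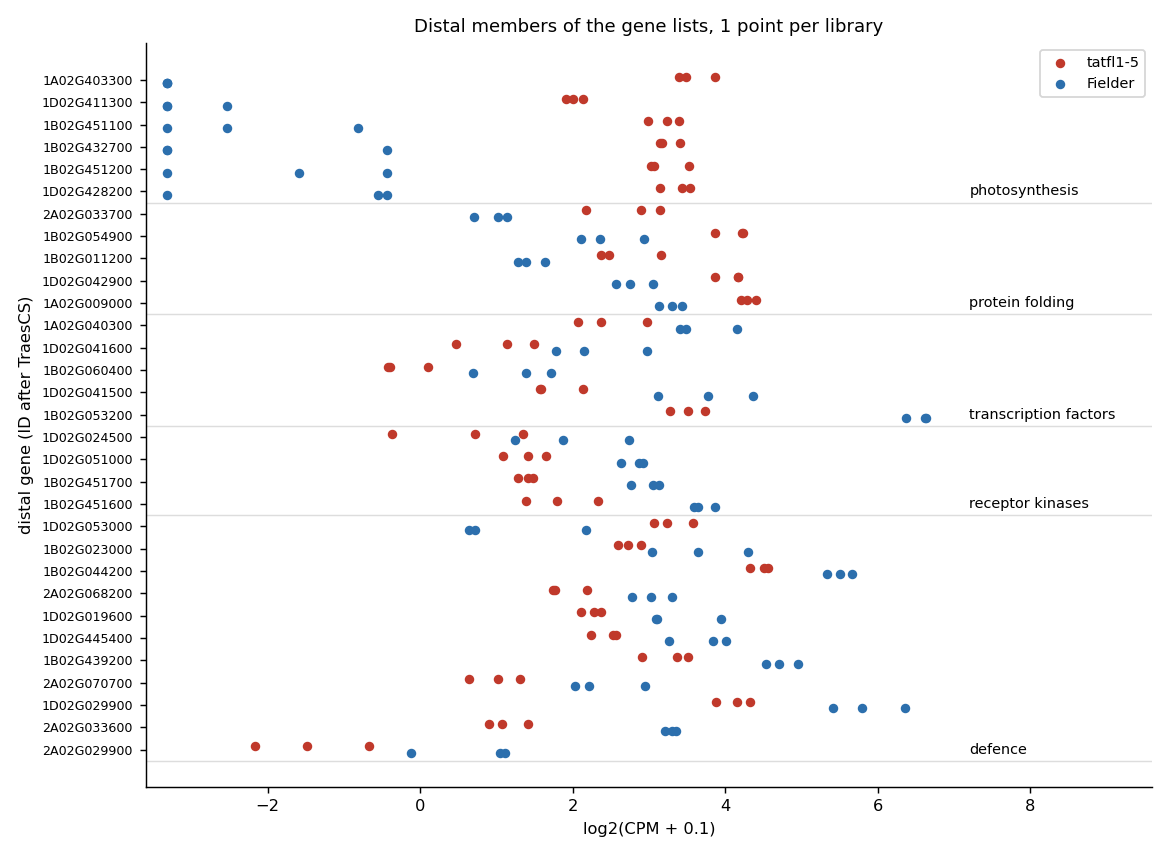
Level as log2(CPM + 0.1), 1 point per library, of the tested distal genes of 5 annotated lists, with tatfl1-5 in red above Fielder in blue. All 6 photosynthesis genes are higher in the mutant without overlap, and 10 of the 11 tested defence genes are called lower.

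Among the genes that the study's text or figures name, 2 taken as type-A response regulators of cytokinin signalling are distal, both on last ends of group 2. The annotation at hand gives no name for either, so their type was not checked here. TraesCS2A02G551100 had 42, 59 and 51 counts in the mutant and 0, 0 and 4 in Fielder, and TraesCS2D02G552200 had 129, 126 and 167 counts in the mutant and 14, 26 and 48 in Fielder, without overlap in either. Type-A regulators act as negative regulators of that pathway. The log2 fold changes were 5.14 (SE 0.84) and 2.28 (SE 0.36), and both were called in each fit without 1 library.

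Neighbouring distal genes changed together in short runs only. Runs of at least 5 consecutive tested genes called in one direction were not found. There were 7 runs of 4 genes, 4 higher and 3 lower, and 19 runs of 3 genes, 13 higher and 6 lower. These runs were described after their values were seen. Runs among the other placed genes are not given here, so the counts cannot be read as a trait of the ends. At nearly the same place of the first ends of 4B and 4D, 7.64% of the gene order, stood runs of 4 lower genes, TraesCS4B02G033100 to TraesCS4B02G033600 and TraesCS4D02G031600 to TraesCS4D02G032200, all 8 with lengths between 672 and 675 bases. The 4 genes on 4B together had 70, 205 and 46 counts in the mutant and 670, 1624 and 252 in Fielder, and those on 4D had 234, 381 and 98 counts in the mutant and 865, 1670 and 419 in Fielder. As summed CPM the genotypes overlapped on 4D, where the highest mutant library had 24.6 and the lowest Fielder library 24.4, and were close on 4B, with 13.2 in the highest mutant library and 14.7 in the lowest Fielder library. In both genotypes replicate 2 was highest and replicate 3 lowest. All 4 genes were called in 5 of the 6 fits without 1 library on 4B and in 4 of 6 on 4D. Genes of such equal length may be near-identical copies that share reads, so the value of a single one is uncertain.

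A pair of abundant genes on first ends of group 6, also chosen after their values were seen, rose strongly. TraesCS6B02G058300 had 4755, 9649 and 4324 counts in the mutant and 563, 734 and 745 in Fielder, and TraesCS6D02G049100 had 5004, 9221 and 4044 counts in the mutant and 631, 908 and 1086 in Fielder. Mutant replicate 2 was the highest library for both genes, and the genotypes did not overlap. The log2 fold changes were 3.19 (SE 0.26) and 2.80 (SE 0.26), and both were called in each fit without 1 library. The sources used here give no name for them.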

How the data were processed

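RNA of axillary buds was sequenced in 6 libraries, 3 each of tatfl1-5 and Fielder, with groups taken from the sample titles. Per the methods, the authors aligned filtered reads to the Ensembl Plants wheat genome, and they deposited raw counts per gene and FPKM values, which the authors normalized per gene length and library total. The aligner and the counter are not given in the sources used here. A library kit is named differently in the labels and in the methods.

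Counts of all genes were fitted with edgeR 4.0.16 in R 4.3.3 (filterByExpr, TMM, quasi-likelihood test, Benjamini-Hochberg adjustment over 52228 genes, no covariates). Library values were compared by exact permutation in Python 3.11.15 with scipy 1.17.1, and the scripts were tested on simulated data. Standard errors were derived from the fold change and its F statistic. Gene lengths were implied by counts and FPKM. Of the identifiers, 0 matched the reference gene table (IWGSC CS RefSeq v2.1), so no coordinates are given. The comparison columns of the authors' own table of changed genes were not used.

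Named genes were the 5 largest rises and falls among called genes with at least 10 counts in each library of the higher genotype and no overlap, the 5 most abundant, up to 3 called genes per annotated list, and genes named by the study; exceptions are marked. The members, lists and rules were chosen with earlier results of these data known. Alternatives were other scalings, DESeq2 1.42.0, filters, a 2-fold test, a replicate block, a length correction, other limits of the ends, pseudocounts, and leaving out chromosome 7A or each library.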

Additional observations from a re-analysis of the deposited data

How the results depend on the processing

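The share of tested distal genes called, 13.8%, was 2.71% (173 higher, 78 lower) with the edgeR test against the 2-fold threshold, where 2.68% of other placed genes were called, and between 11.2% and 15.5% when each library was left out in turn. Under the other alternatives it was within 1.5 times of the reported value, with 14.7% in DESeq2, 14.4% (657 higher, 679 lower) when scaled by library size alone and 10.3% without a filter. Same-numbered libraries of the genotypes did not deviate together (correlations of -0.02, 0.05 and 0.01), so the numbers were not taken as pairs, and with the replicate block 13.7% were called and 3 of the 37 named genes called lost their call.

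The level difference of distal and other genes stayed between -0.56 and -0.54, and the difference in the share expressed between -10.7 and -10.6 percentage points, when 1 library was left out, with an exact p of 0.0625, the smallest 5 libraries can give. The genotype difference in the count share became 0.71 percentage points with ends of 20% and 0.028 without the 100 most counted genes, and that in the level gap -0.0071 with ends of 5%. The cause was not tested. The gap in replicate SD was 0.00084 above a mean log2 CPM of 2, 0.0077 with ends of 5%, and between 0.0082 and 0.0138 without 1 library.

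The 2-fold test lost 14 of the named calls, and no named gene that was called changed direction under an alternative in which it was fitted. TraesCS1B02G042200, which was not called, had a log2 fold change of -0.16, and 0.0056 without Fielder replicate 3. Depth limits what can be said of low distal genes, of which only the 67.1% that passed the filter were tested.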
